A study of Mus musculus with 6 samples.

Results

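The 10 genes described here are subunits of the transcription factor NF-kB and genes of its feedback loop and its inducing ligand, picked by symbol from the FPKM table of a mouse bone marrow study. They are Rela, Rel, Relb, Nfkb1, Nfkb2, Nfkbia, Nfkbie, Nfkbiz, Tnfaip3 and Tnf, 10 of 23359 gene symbols, each on 1 row of the table. The study compared 3 libraries labelled Gab2 -/- (NULL A, B and C) with 3 labelled Gab2 +/+ (WT A, B and C), all from polyadenylated RNA of mouse bone marrow. GAB2 is a docking protein that carries signals from cytokine receptors and oncogenic kinases, and the title of the series names transformation by the kinase fusion BCR-ABL1. The strain, age and treatment of the mice, the way the marrow cells were kept, and whether they carried BCR-ABL1 are not given in the labels, nor is the part of Gab2 that was removed. Nothing says that replicates came from separate mice, so the tests reflect the spread among these 6 libraries alone, which may be technical. Values per library are listed for A, B and C in turn.

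NF-kB proteins bind DNA as dimers. In the canonical pathway a receptor such as that of tumour necrosis factor activates the IKK kinase complex, which marks inhibitors of the I kappa B family for destruction and so lets dimers of RELA, REL and the processed NFKB1 product enter the nucleus. In the non-canonical pathway the kinase NIK drives processing of NFKB2, which then partners RELB. The dimers induce their own brakes, among them I kappa B alpha (Nfkbia), I kappa B epsilon (Nfkbie) and the ubiquitin-editing enzyme encoded by Tnfaip3, and in B lymphocytes the pathway serves survival and maturation.

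The libraries were checked against their labels first. Gab2 measured 0.123, 0.145 and 0.203 FPKM in NULL, against 3.33, 3.10 and 2.43 FPKM in WT, a ratio of means of 0.0531. The log2 change of FPKM + 1 was -1.77 (limma adjusted p = 1.83e-05), which understates the fall of a gene this low. Depth, estimated from the commonest step among low values, was roughly 22.4 to 67.6 M fragments in NULL and 16.98 to 51.3 M in WT, where M stands for mega. Although the labels name whole marrow, the defining neutrophil genes Elane, S100a8, S100a9 and Retnlg were listed at 0 in all 6 libraries. The 10 B-lineage markers summed to between 3031 and 3189 FPKM in NULL and between 2046 and 2277 FPKM in WT, with 7 called higher and 2 lower. Of 8 monocyte and macrophage markers, 2 passed the expression filter and both rose (Itgam, at 4.56 ± 0.0250 FPKM in NULL and 0.0507 ± 0.0224 FPKM in WT, and Lyz2, at 2.85 ± 0.659 and 0.413 ± 0.154 FPKM). Both passed only through their NULL values, so the filter fixed their direction. Cd14 was listed at 0 in every library, and Csf1r reached at most 0.144 FPKM in NULL and 0.0593 FPKM in WT. The monocyte and macrophage list summed to between 8.05 and 9.23 FPKM in NULL and between 1.20 and 1.69 FPKM in WT, and mast cell and basophil markers to between 0.892 and 2.52 FPKM in NULL and at most 0.0400 FPKM in WT. T-cell markers summed to at most 0.217 FPKM in NULL and 0.143 FPKM in WT. The part of these markers in the results on NF-kB genes was not tested. Genes were tested with limma on log2(FPKM + 1) where their mean was at least 1 FPKM, and a gene is called when its Benjamini-Hochberg adjusted p over all tested genes is under 0.05.

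Across the 10 genes 8 were called higher in NULL, 1 (Tnf) was called lower and 1 (Nfkb1) was not called. Of all 9916 tested genes 23.3% were called higher, 42.0% lower and 65.3% either way, so a call by itself was common in this comparison. That split depends on scaling, since 45.4% were called higher and 20.6% lower after a rescaling that equalised the library totals with small RNA genes left out. The median log2 change of the 10 genes was 0.56, against -0.13 over all tested genes. The values of NULL and WT did not overlap for the same 9 genes, while 26.0% of all tested genes lay without overlap above WT, 45.1% below it and 71.0% in either direction. All 10 genes passed the filter, but Relb passed only through its NULL values, since its WT values were all under 1 FPKM. The filter thus fixed its direction. In bulk RNA, fewer cells of a type and less RNA per cell cannot be told apart.

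**Figure D1:**
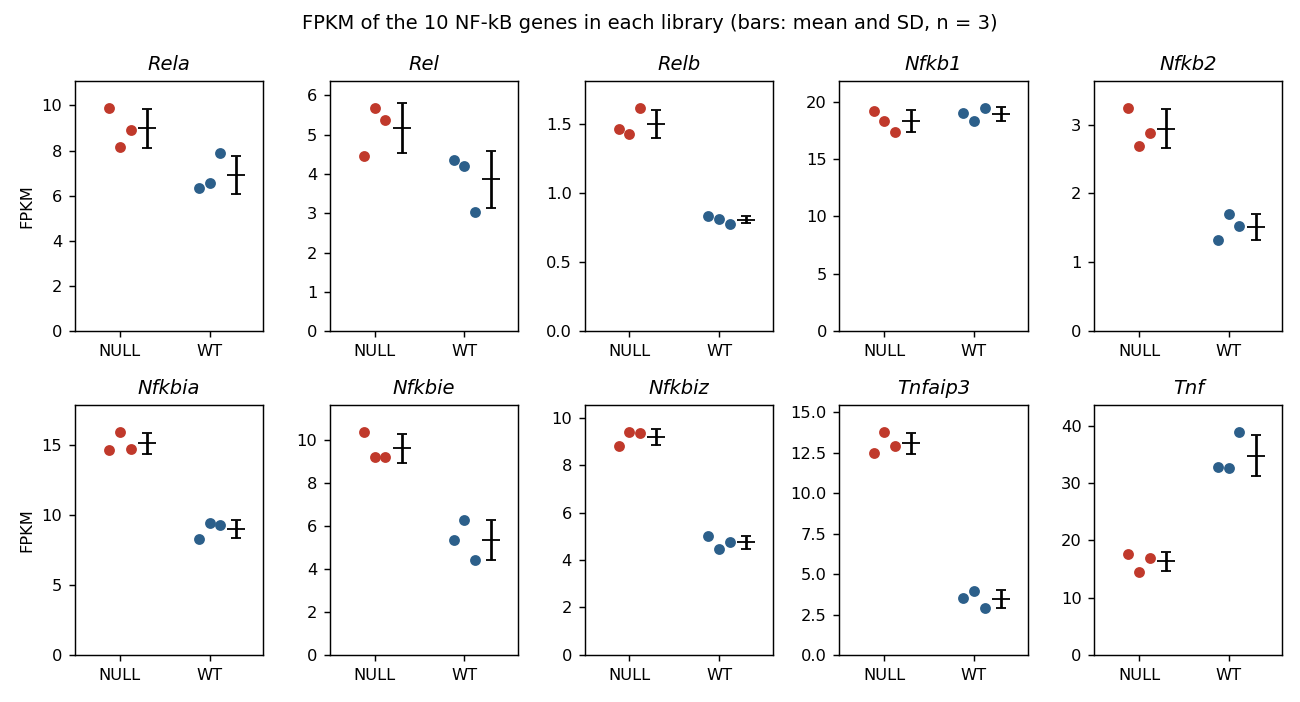
FPKM (vertical axes, each from 0) of the 10 genes in the 3 NULL (red) and 3 WT (blue) libraries, with the group mean and SD beside the points. Tnfaip3 lies between 12.5 and 13.8 FPKM in NULL and between 2.88 and 3.97 FPKM in WT, Tnf lies lower in NULL, and the Nfkb1 values of NULL and WT overlap.

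The 3 subunits with a transactivation domain, Rela, Rel and Relb, were all called higher in NULL. Rela, on chromosome 19 from 5637483 to 5648130 (plus strand, GRCm38 throughout), measured 9.90, 8.14 and 8.91 FPKM in NULL, against 6.34, 6.56 and 7.88 FPKM in WT. The lowest NULL library stood just above the highest WT library, and the ratio of means was 1.30. Limma gave Rela a log2 change of 0.33 (SE 0.099, adjusted p = 0.0190). That call was lost without NULL A, NULL C, WT A or WT B (adjusted p = 0.0582, 0.0516, 0.0644 and 0.0642).

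Rel, which encodes the c-Rel subunit typical of lymphocytes and lies on chromosome 11 from 23736847 to 23770970 (minus strand), read 4.45, 5.68 and 5.36 FPKM in NULL, against 4.36, 4.19 and 3.03 FPKM in WT. NULL A lay close to WT A, and WT C was the lowest of the 6 libraries. The log2 change was 0.35 (SE 0.129, limma adjusted p = 0.0449). The call was lost without NULL B, NULL C, WT B or WT C (adjusted p = 0.141, 0.12, 0.0544 and 0.091), with no filter on low values (0.102) and after quantile normalization (0.0749).

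Relb, the partner of the processed Nfkb2 product, on chromosome 7 from 19606217 to 19629438 (minus strand), was the least abundant of the 10 genes. It read 1.46, 1.42 and 1.61 FPKM in NULL, against 0.832, 0.813 and 0.777 FPKM in WT. The groups lay far apart relative to their spread, with a ratio of means of 1.86 and a log2 change of 0.47 (SE 0.075, limma adjusted p = 0.00101). That call is not separate from the filter, which Relb passed only through NULL. With no filter on low values the limma adjusted p was 0.000971. At the estimated depths the Relb values rest on roughly 43.1 to 308.2 fragments, the fewest of the 10 genes, and those of the other 9 on roughly 107.1 to 5200 fragments.

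The precursor genes parted from each other. Nfkb1, whose product is both a precursor with I kappa B-like repeats and the source of a common RELA partner, lies on chromosome 3 from 135584655 to 135691547 (minus strand). It read 19.2, 18.3 and 17.3 FPKM in NULL, against 19.0, 18.3 and 19.5 FPKM in WT. The groups overlapped, and the log2 change was -0.046 (SE 0.064, limma adjusted p = 0.551). The sign of Nfkb1 turned under all 4 rescalings tried, and it was called higher, by 0.32, after equalising library totals with small RNA genes left out (adjusted p = 0.00746). Nfkb2, the non-canonical precursor, on chromosome 19 from 46304320 to 46312385 (plus strand), read 3.24, 2.69 and 2.88 FPKM in NULL, against 1.33, 1.71 and 1.52 FPKM in WT. Each NULL library was above each WT library. The ratio of means was 1.93 and the log2 change 0.64 (SE 0.091, limma adjusted p = 0.000502). The gene Psd overlaps Nfkb2 on the opposite strand and read at most 0.125 FPKM in any library.

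Shares within a library do not change when the whole library is multiplied by a factor. Nfkb1 made up 50.2%, 50.6% and 48.0% of the summed FPKM of the 5 subunit genes in NULL, against 59.6%, 57.9% and 59.6% in WT. Its share was thus lower in every NULL library, with means of 49.6 ± 1.38% and 59.1 ± 0.970% (SD, n = 3 each). Nfkb2 held 7.96 ± 0.532% in NULL and 4.74 ± 0.622% in WT, and Relb 4.07 ± 0.353% and 2.52 ± 0.126%, both without overlap. Rela held 24.3 ± 1.73% in NULL and 21.6 ± 2.22% in WT, and Rel 14.04 ± 2.13% and 12.1 ± 2.45%, with overlapping ranges. The ratio of Nfkb2 to Nfkb1 was 0.169, 0.147 and 0.166 in NULL, against 0.0699, 0.0933 and 0.0782 in WT. These are descriptions of single libraries with no test, and how often other shares lie without overlap was not computed.

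**Figure D2:**
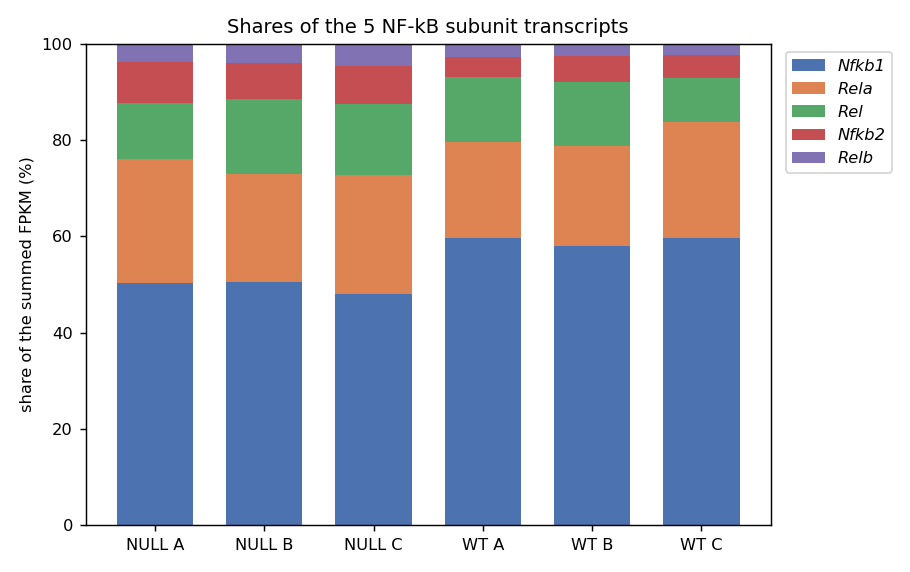
Share of each of the 5 subunit genes in their summed FPKM (vertical axis, percent) in each NULL and WT library. The Nfkb1 segment spans 48.0% to 50.6% in NULL and 57.9% to 59.6% in WT, and the Nfkb2 and Relb segments are wider in every NULL library.

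The 3 inhibitor genes of the I kappa B family rose together. Nfkbia, the fast-resynthesised inhibitor that exports NF-kB from the nucleus, lies on chromosome 12 from 55489410 to 55492647 (minus strand). It read 14.7, 15.98 and 14.8 FPKM in NULL, against 8.30, 9.44 and 9.28 FPKM in WT. The groups were well separated, with a ratio of means of 1.68 and a log2 change of 0.69 (SE 0.072, limma adjusted p = 0.000122). Nfkbie, an inhibitor prominent in B cells, on chromosome 17 from 45555703 to 45563169 (plus strand), read 10.4, 9.21 and 9.18 FPKM in NULL, against 5.32, 6.26 and 4.41 FPKM in WT. WT varied more than NULL here and still did not reach it, and the log2 change was 0.75 (SE 0.112, limma adjusted p = 0.000686). Nfkbiz, a nuclear I kappa B protein that acts with NFKB1 dimers on secondary response genes, lies on chromosome 16 from 55811375 to 55838899 (minus strand). It read 8.81, 9.42 and 9.38 FPKM in NULL, against 5.01, 4.45 and 4.77 FPKM in WT. Its ratio of means was 1.94 and its log2 change 0.83 (SE 0.068, limma adjusted p = 4.95e-05). These 3 genes were called higher under every one of the 18 alternatives tried.

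Inhibitor transcripts were also set against those of Rela in the same library. The ratio of Nfkbia to Rela was 1.70 ± 0.244 in NULL and 1.31 ± 0.130 in WT, that of Nfkbie to Rela 1.07 ± 0.0539 and 0.784 ± 0.202, and that of Nfkbiz to Rela 1.03 ± 0.135 and 0.691 ± 0.0936 (SD, n = 3 each). For all 3 ratios each NULL library was above each WT library. This restates that these genes rose more than Rela, with ratios of means of 1.68, 1.80 and 1.94 against 1.30. How often other ratios lie without overlap was not computed. Of the other inhibitors of the family, Nfkbib was not called at 1.64 ± 0.385 FPKM in NULL and 2.10 ± 0.129 FPKM in WT (limma adjusted p = 0.0896), and Nfkbid was not called at 3.88 ± 0.120 and 3.93 ± 0.377 FPKM (limma adjusted p = 0.903). Bcl3 did not pass the filter, with at most 0.0263 FPKM in any library.

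Tnfaip3, whose product removes and adds ubiquitin chains to shut off signalling to IKK, rose most of the 10. The gene lies on chromosome 10 from 19000910 to 19015657 (minus strand) and read 12.5, 13.8 and 12.9 FPKM in NULL, against 3.54, 3.97 and 2.88 FPKM in WT. The NULL values clustered tightly at a ratio of means of 3.77, with a log2 change of 1.66 (SE 0.099, limma adjusted p = 1.88e-05). Among all tested genes 99, Tnfaip3 included, were called with an increase at least as large, which is 0.998%. The ratio of Tnfaip3 to Rela was 1.26, 1.70 and 1.45 in NULL, against 0.559, 0.605 and 0.366 in WT. In the order of levels Tnfaip3 took rank 4 of the 10 genes in NULL, apart from its neighbours, and rank 8 in WT, where its range overlapped that of Rel.

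Tnf, the ligand and itself a target of NF-kB in many cells, moved the other way. It read 17.7, 14.5 and 16.9 FPKM in NULL, against 32.8, 32.6 and 39.0 FPKM in WT. Every NULL library was below every WT library, the ratio of means was 0.469 and the log2 change was -1.05 (SE 0.10, limma adjusted p = 8.52e-05). A decrease at least as large was called for 488 tested genes, Tnf included, or 4.92%. Tnf was the most abundant of the 10 genes in WT, while in NULL Nfkb1 averaged higher and the ranges of Nfkb1, Tnf and Nfkbia overlapped in turn. The ratio of Tnf to Tnfaip3 was 1.41, 1.05 and 1.31 in NULL, against 9.26, 8.21 and 13.5 in WT.

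The genes beside Tnf encode related ligands. Tnf lies on chromosome 17 from 35199381 to 35202007 on the minus strand of GRCm38. Lta, which encodes the related ligand lymphotoxin alpha, lies 1158 bp away on the same strand, and Ltb, which encodes its membrane partner lymphotoxin beta, 3061 bp away on the plus strand. Lta read 27.8, 23.6 and 27.0 FPKM in NULL, against 95.2, 90.3 and 119.9 FPKM in WT. This was a log2 change of -1.91 (SE 0.118, limma adjusted p = 2.06e-05). No library of NULL came near WT for Lta. Ltb was not called, at 7.23, 5.57 and 5.72 FPKM in NULL and 4.39, 5.14 and 9.80 FPKM in WT (limma adjusted p = 0.979), and WT C stood apart there.

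Single-gene exact permutation tests, two-sided, can go no lower than p = 0.1 with 3 libraries a group. The exact test reached that value for each of the 9 genes without overlap and gave p = 0.5 for Nfkb1. Because the median over all tested genes was -0.13 on the deposited scale, the changes were also set against that median. They were then 1.79 for Tnfaip3, 0.96 for Nfkbiz, 0.88 for Nfkbie, 0.82 for Nfkbia, 0.77 for Nfkb2, 0.59 for Relb, 0.48 for Rel, 0.46 for Rela, 0.081 for Nfkb1 and -0.92 for Tnf, all as log2 differences. The added 1 FPKM shrinks the changes of low genes such as Relb, so this order is not that of the ratios of means. Under quantile normalization, median-of-ratios rescaling and both rescalings to a common total, Tnfaip3 rose by 1.72 to 1.99 and Tnf fell, with log2 changes between -0.89 and -0.68.

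**Figure D3:**
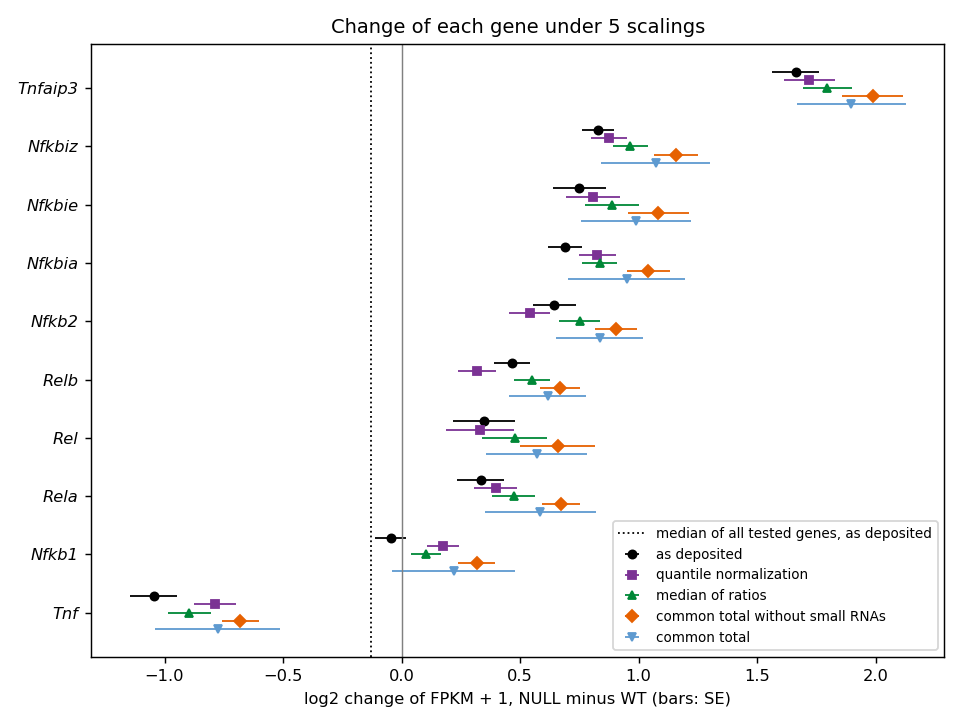
Log2 change of FPKM + 1, NULL minus WT (horizontal axis, bars SE), of each gene on the deposited scale and under 4 rescalings, with the median of all tested genes on the deposited scale (-0.13) as a dotted line. Tnfaip3 lies farthest right and Tnf farthest left under each scaling, and Nfkb1 crosses 0.

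Upstream sequence was examined because NF-kB is known to act on several of its own feedback genes. RefSeq starts on GRCm38.p6 were listed for 7 of the 10 genes; Nfkb1, Relb and Nfkbiz were not among them. The 250 bases before the most upstream listed start were searched on both strands for the 10-letter kappa B consensus, and overlapping matches were merged for display. A match was found for 5 of the 7 genes, Tnfaip3, Nfkbie, Nfkbia, Nfkb2 and Rel, and none for Rela or Tnf in this window. Of all 27025 genes with a listed start 7.03% held a match. Among tested genes with a listed start, 9.71% of those called higher in NULL held one, 7.87% of those called lower and 8.02% of those not called. A match is a description of the letters and does not show that NF-kB binds there. The starts used for Tnfaip3 (19015410) and Nfkb2 (46304737) lie inside the gene spans given above. The windows printed for these genes are thus before the RefSeq start but within the annotated gene. The windows below run 5′ to 3′ on the strand of the gene, with matched letters in capitals, and are shorter where the stretch overlaps an annotated exon.
Tnfaip3, chr10:19015411-19015540, minus strand, 130 bases before the start: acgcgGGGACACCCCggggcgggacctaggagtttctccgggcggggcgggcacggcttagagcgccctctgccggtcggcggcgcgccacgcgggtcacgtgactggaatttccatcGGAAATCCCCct
Nfkbia, chr12:55492648-55492777, minus strand, 130 bases before the start: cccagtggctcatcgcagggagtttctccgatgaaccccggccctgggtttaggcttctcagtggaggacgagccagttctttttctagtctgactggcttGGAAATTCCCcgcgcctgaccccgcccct
Nfkbie, chr17:45555570-45555699, plus strand, 130 bases before the start: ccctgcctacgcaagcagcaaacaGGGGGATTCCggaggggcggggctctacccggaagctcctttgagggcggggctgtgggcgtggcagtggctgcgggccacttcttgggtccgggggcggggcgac
Nfkb2, chr19:46304689-46304718, plus strand: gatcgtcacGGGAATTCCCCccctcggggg
Nfkb2, chr19:46304716-46304736, plus strand: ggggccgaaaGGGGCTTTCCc
Rel, chr11:23771041-23771070, minus strand: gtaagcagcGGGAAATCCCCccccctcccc

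The matches sat close to the starts. With the base before the start counted as -1, they began at -125 and -12 in Tnfaip3, at -39 and -11 in Nfkb2, at -29 in Nfkbia, at -106 in Nfkbie and at -92 in Rel. In Tnfaip3, Nfkb2 and Rel a match on one strand coincided with one on the other. All 5 genes with a match were called higher in NULL, as was Rela, which had none. Tnf, which had none, was called lower. A link between match and call was not tested, since these genes were picked as NF-kB genes. A start was listed for 7408 tested genes. Of these, 9.71% of the 1740 called higher, 7.87% of the 3137 called lower and 8.02% of the 2531 not called held a match. Differences among these shares were not tested.

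**Figure D4:**
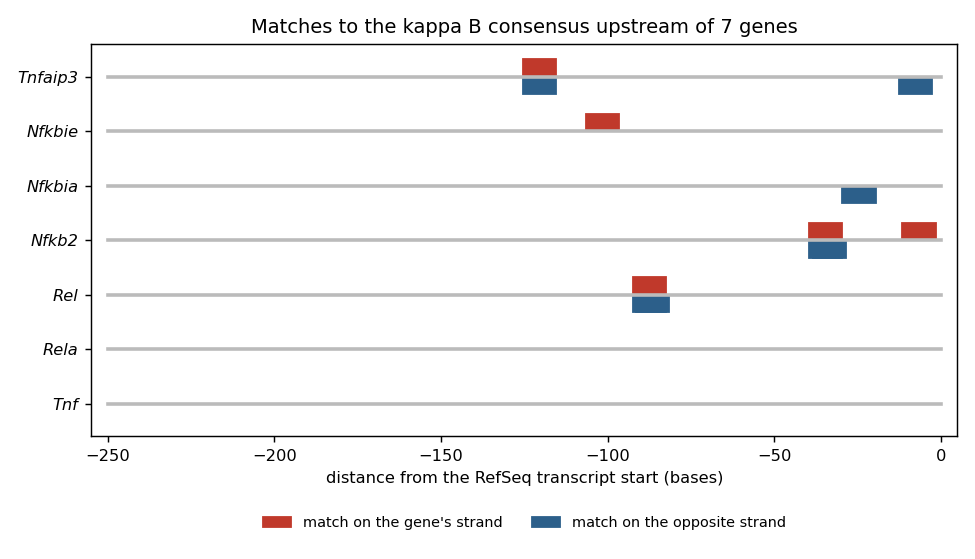
Position of matches to the kappa B consensus (red on the strand of the gene, blue on the opposite strand) in the 250 bases before the RefSeq start of 7 genes, as distance in bases (horizontal axis). Tnfaip3 and Nfkb2 carry matches at 2 places each, Rel, Nfkbia and Nfkbie at 1, and Rela and Tnf at none.

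Around the 10 genes, 99 pathway genes were counted, of which 67 were tested, 20 called higher and 15 lower, with a median log2 change of 0.013. Among all tested genes the shares called were 23.3% higher and 42.0% lower. The balance depended on scaling, with 19 to 40 called higher and 7 to 15 lower under the rescalings. Under the same rescalings 20.65% to 45.4% of all tested genes were called higher and 10.04% to 33.1% lower. The medians of all tested genes under them lay between -0.030 and 0.20. These shares and medians are the background for each list below. Among 12 tested feedback regulators outside the 10, 5 rose and 1 fell (median 0.099). The ubiquitin ligase gene Birc3, a classical NF-kB target, read 18.0 ± 1.05 FPKM in NULL and 10.3 ± 0.632 FPKM in WT (log2 change 0.74, limma adjusted p = 9.19e-05). Zc3h12a, an RNase gene that limits inflammatory transcripts, read 3.61 ± 0.375 FPKM in NULL and 1.97 ± 0.316 FPKM in WT, and the ubiquitin ligase gene Peli1 8.12 ± 0.988 and 5.38 ± 0.753 FPKM. Fam105b, the symbol in the files for the linear-chain deubiquitinase OTULIN, fell, to 15.1 ± 0.404 FPKM in NULL against 23.5 ± 4.21 FPKM in WT, and was called in 2 of the 4 rescalings.

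Among the kinases that release NF-kB and their partner proteins, 3 of 10 tested genes rose and 2 fell (median 0.068). Over all tested genes 23.3% rose and 42.0% fell. Under the rescalings 2 to 6 of the list rose and 0 fell, against 20.65% to 45.4% and 10.04% to 33.1% of all tested genes. Map3k14, which encodes NIK, read 3.21 ± 0.218 FPKM in NULL and 1.99 ± 0.300 FPKM in WT (log2 change 0.50), and Ikbke 3.67 ± 0.280 and 2.26 ± 0.180 FPKM (0.52). Chuk, which encodes IKK alpha, read 16.1 ± 1.29 FPKM in NULL and 20.8 ± 2.21 FPKM in WT, and Map3k7, the kinase that activates IKK, 12.6 ± 0.893 and 15.4 ± 1.09 FPKM. Both fell on the deposited scale but were called under 0 of the 4 rescalings and changed sign under at least 1, and the call of Map3k7 was also lost without NULL B, WT A or WT B (adjusted p up to 0.0655). Ikbkb, which encodes IKK beta, was not called at 14.9 ± 0.553 FPKM in NULL and 13.6 ± 0.477 FPKM in WT (limma adjusted p = 0.118), but was called higher in 3 of the 4 rescalings (log2 changes between 0.27 and 0.48 over the 4). The regulatory subunit gene Ikbkg rose to 7.57 ± 0.157 FPKM in NULL against 6.44 ± 0.287 FPKM in WT, and was called in 3 of the 4 rescalings.

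The 9 tested receptor and ligand genes had a median of -0.093, and of between -0.071 and 0.23 under the rescalings. Over all tested genes 23.3% were called higher and 42.0% lower. Of these 9 genes 1 was called higher and 4 lower. Besides Lta these were Tnfrsf13c, the receptor for the B-cell survival factor BAFF (5.81 ± 0.752 FPKM in NULL and 14.4 ± 3.56 FPKM in WT), Tnfsf11, the ligand RANKL (4.28 ± 0.591 and 9.08 ± 0.766 FPKM), and the endotoxin receptor gene Tlr4 (1.85 ± 0.228 and 3.50 ± 0.302 FPKM). Of the receptors for TNF, chosen for mention after their values were seen, Tnfrsf1b was not called at 5.61 ± 0.730 FPKM in NULL and 6.02 ± 0.326 FPKM in WT, and Tnfrsf1a read at most 0.0643 FPKM. Among 19 tested adaptor and ubiquitin ligase genes 4 rose and 5 fell (median 0.0073), against the same 23.3% and 42.0% over all tested genes. Under the rescalings 4 to 12 rose and 2 to 5 fell, with medians between 0.068 and 0.32. Birc2, which restrains NIK together with TRAF3, read 35.3 ± 3.62 FPKM in NULL and 16.1 ± 1.24 FPKM in WT, whereas Traf3 itself read 3.27 ± 0.548 and 6.32 ± 0.530 FPKM. Ube2n, the ubiquitin-conjugating enzyme gene for signalling chains, fell, to 16.99 ± 0.792 FPKM in NULL against 32.04 ± 3.11 FPKM in WT, and was called in 3 of the 4 rescalings.

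Of 33 target genes 15 were tested, of which 7 rose and 3 fell (median 0.041), against 23.3% and 42.0% of all tested genes. Among the 7 that rose, Junb read 2.24 ± 0.711 FPKM in NULL and 0.890 ± 0.32 FPKM in WT. It passed the filter only through NULL, so the filter fixed its direction. Under the rescalings 7 to 9 rose and 1 to 3 fell, with medians between 0.18 and 0.37. Over all tested genes 20.65% to 45.4% then rose and 10.04% to 33.1% fell, with medians between -0.030 and 0.20. The survival gene Bcl2l1 read 28.8 ± 2.0 FPKM in NULL and 10.7 ± 1.37 FPKM in WT, the activation marker Cd69 32.6 ± 3.63 and 13.6 ± 3.87 FPKM, the Schlafen gene Slfn2 95.2 ± 3.55 and 45.7 ± 14.3 FPKM, and the adhesion molecule gene Icam1 20.2 ± 0.833 and 9.44 ± 0.936 FPKM. Each of these 4 was called higher under the 4 rescalings as well. The 3 that fell, named after their values were seen, were the adhesion receptor gene Cd44 (7.79 ± 0.312 FPKM in NULL and 14.9 ± 0.230 FPKM in WT), the mitochondrial superoxide dismutase gene Sod2 (11.2 ± 0.270 and 17.4 ± 0.387 FPKM) and Marcksl1 (23.9 ± 2.24 and 38.3 ± 2.56 FPKM). Cd44 was called lower in all 4 rescalings, and Sod2 and Marcksl1 in 3 each. These target genes respond to other factors too, and most B-lineage markers, Itgam and Lyz2 were also higher in NULL.

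**Figure D5:**
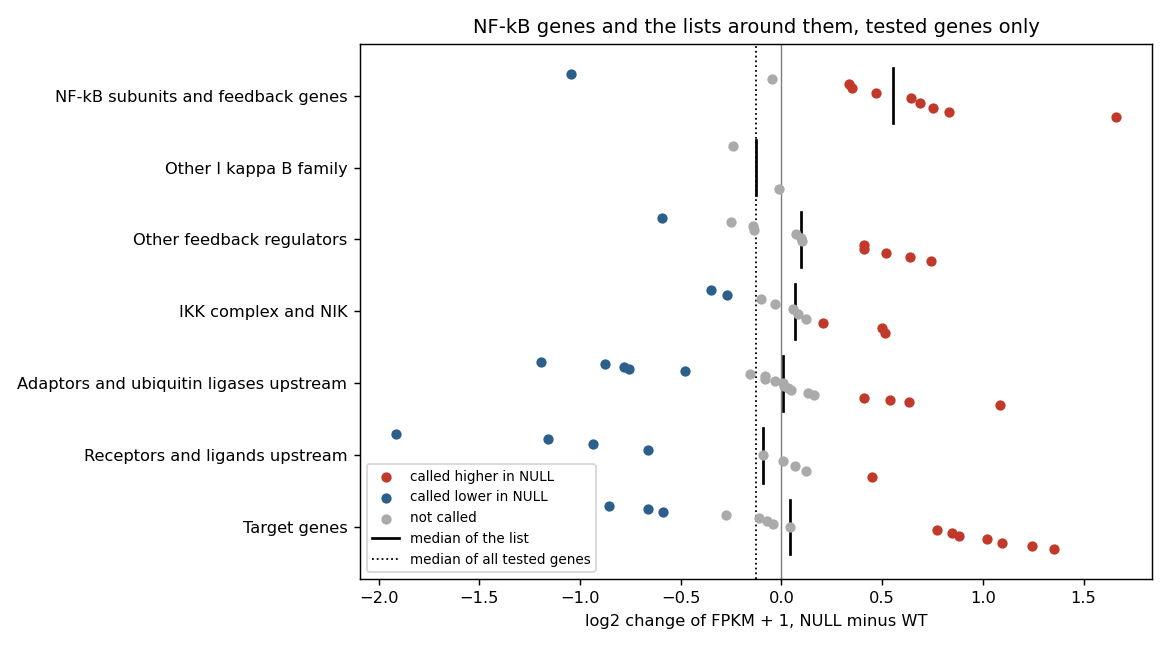
Log2 change of FPKM + 1, NULL minus WT (horizontal axis), of each tested gene among the 10 NF-kB genes and the lists around them, coloured by call, with each list's median as a black bar and that of all tested genes dotted. The NF-kB genes have a median of 0.56, against medians between -0.13 and 0.099 in the other 6 lists on the deposited scale.

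Genes whose pattern over the 6 libraries was most like that of Tnfaip3, among 1013 tested genes whose log2 change was 1 or more in size, were Baz2a, Btg2 and Cdyl2, with Pearson r of 0.9998, 0.9994 and 0.9991. Those most like Tnf were Mthfd1l, Sdc1 and Atp10a, with r of 0.9997, 0.9997 and 0.9987. Such values were common, since 155 genes exceeded 0.99 with Tnfaip3 and 128 with Tnf, and all points share the split into NULL and WT.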

How the data were processed

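Polyadenylated RNA of 6 bone marrow libraries was sequenced as paired ends with a stranded kit, per the labels' protocols. The authors deposited FPKM, fragments scaled to transcript length and library depth. The submitters' processing notes name Bowtie, Cufflinks, mm10 and GRCm38 but neither versions nor roles. For annotation, strand use in counting and filters the sources used here give nothing. As the values are not counts, no count model was run.

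The series table of 23848 rows differed from the library tables in 0 values. Of 256 symbols with several rows, that of highest mean entered, and 489 rows dropped out. Groups and letters come from the titles. Limma 3.58.1 in R 4.3.3 tested log2(FPKM + 1) two-sided, where the mean reached 1 FPKM, with a trend in the variance and Benjamini-Hochberg adjustment over all 9916 tested genes. Folds on this scale understate changes of low genes. Positions are from GENCODE vM21 and sequences from RefSeq on GRCm38.p6. Depth was estimated from low FPKM and the longest transcript less 150 bp, an approximation that gives no counting interval. Small RNA genes held 8.60% to 30.1% of the summed FPKM in NULL and 6.01% to 31.4% in WT.

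The 10 genes and the lists around them were chosen with earlier results of these data known. Named are the 10 genes, Gab2, up to 4 called genes a list by size of change, and the inhibitor and IKK genes; 1 gene that this rule names is not reported here. Alternatives covered pseudocount, filter, scaling, moderation, a block on the letter and leaving out each library.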

Additional observations from a re-analysis of the deposited data

How the results depend on the processing

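The directions of 9 of the 10 genes held under all alternatives in which they were tested: other pseudocounts (0.1, 0.5 and 5), other filters, 4 rescalings, other moderation, a replicate block and leaving out each library. The calls of Relb, Nfkb2, Nfkbia, Nfkbie, Nfkbiz, Tnfaip3 and Tnf held too. Rela lost its call in 4 of 18 alternatives and Rel in 7 of 17. Nfkb1 changed sign to 0.18 after quantile normalization, 0.10 after median-of-ratios rescaling, 0.32 with a common total without small RNA genes and 0.22 with a common total. The number of the 10 genes called higher was 5 with a mean of at least 5 FPKM, a filter that leaves Rel, Relb and Nfkb2 untested, and 6 to 7 without single libraries, with Tnf called lower each time. Over all genes 1364 were called higher with that filter, and 4513 higher and 2045 lower with a common total without small RNA genes, against 2311 and 4168 as deposited. With a common total 999 were called lower, and the number called higher was 2055. Leaving out single libraries gave 2013 to 2415 higher and 3750 to 4073 lower. Over the pathway lists together 40 were called higher with a common total without small RNA genes and 7 lower with a common total. Adding 1 FPKM to each subunit made the NULL minus WT difference in share 1.09 percentage points for Relb and -7.71 for Nfkb1, against 1.55 and -9.45. The letters A, B and C are not said to pair libraries, and same-letter deviations correlated at 0.073, 0.36 and 0.13. With the replicate block on the letter 7 of the 10 genes were called higher, the call of Rel being lost (limma adjusted p = 0.0593), and 2050 and 3794 of all genes were called higher and lower. Except where a value of a table shows it (fewer genes tested), the cause was not tested. WT B was the shallowest library by estimated depth, at roughly 16.98 M fragments. Relb and Nfkb2 rested on the fewest estimated fragments of the 10 genes, roughly 43.1 and 107.1 at the lowest. The effect of depth on their values was not tested.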
